A study of Mus musculus with 8 samples.

Results

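The mitochondrial carrier family Slc25 was described in whole kidneys of mice 2 months old. Members were taken as every row of the deposited gene table whose symbol begins with Slc25a and a number, which gave 47 of 23219 genes. This rule uses no measured value, but it was set with earlier results of these data known. The control group held 4 kidneys of genotype Mta2flx/flx, in which both copies of Mta2 carry Cre target sites. The mutant group held 4 kidneys of genotype Six2Cre Mta2flx/flx, which carry the same floxed alleles and in addition Six2Cre, a Cre recombinase driven by regulatory sequence of Six2, a gene of nephron progenitor cells. Mta2 encodes a subunit of the NuRD chromatin remodelling and deacetylase complex. Six2Cre acts in nephron progenitors and their descendants, the epithelium of the nephron, and leaves the collecting duct, vessels, stroma and blood cells with the floxed allele intact. A library is called by its group and its title number. The labels speak of 4 kidneys for each genotype and do not state that these were 4 animals, so a p-value here measures spread between samples, which may be technical in part.

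SLC25 proteins sit for the most part in the inner mitochondrial membrane, and each moves a small set of metabolites between the cytosol and the matrix. They exchange ADP for ATP, bring in phosphate, carry di- and tricarboxylates and amino acids between pathways that are split across the membrane, and deliver cofactors, iron and glutathione. The proximal tubule, which makes up much of the kidney cortex, is rich in mitochondria and depends on oxidative metabolism for salt and solute reabsorption.

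Values are given as BPM, the sequenced bases assigned to a gene per megabase assigned to all genes, a reading of the deposited signal inferred from its steps. Assigned bases ranged from 164 to 468 megabases per library. Small RNA genes took 29.8%, 34.8%, 16.0% and 24.6% of the bases in controls 3401, 3486, 3586 and 3587, and 26.7%, 48.4%, 53.2% and 26.1% in mutants 3382, 3387, 3487 and 3489. The totals of mutants 3387 and 3487 thus held less signal of all other genes. Mta2 itself stood at 49.0, 35.1, 67.9 and 52.4 BPM in these controls and at 52.6, 33.1, 14.3 and 48.9 BPM in these mutants. The groups overlapped (log2 fold change -0.56, limma adjusted p = 0.857), and since the table holds 1 value for the whole gene and the tissue holds cells without Cre, it does not check the deletion. The tissue label was borne out by its markers. All 12 proximal tubule markers were tested, and their summed level was 62779 to 69933 BPM in controls and 42389 to 65202 BPM in mutants, with none at 0. Most of this sum was Kap, an androgen-regulated kidney protein, and the 11 other markers summed to 13129 to 24484 BPM in controls and 9913 to 16659 BPM in mutants. All 12 had a negative fold change and 0 passed the test, and their part in the carrier values was not tested.

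Members lay on 19 chromosomes, and all 47 were matched to the gene annotation of the GRCm38 (mm10) assembly. Promoter sequences from RefSeq (GRCm38.p6) were matched for 36 members, with 46 windows of 250 bases before to 50 after a start. The upstream stretches below belong to Slc25a48, which had the largest fold change of the family, and to Slc25a5, Slc25a39 and Slc25a4, the members with the highest levels. Each is the 160 bases just before the RefSeq start, 5′ to 3′ on the gene's strand. For Slc25a39 and Slc25a4 this stretch lies within the gene span of the annotation, which begins further upstream. Capitals mark the matches of 3 motifs searched on both strands. These were the GC box, written GGGCGG, the CCAAT box, written CCAAT, and the ETS motif, written CCGGAAG. In the stretches printed no match overlapped another.
Slc25a48, chr13:56438195-56438354, plus strand: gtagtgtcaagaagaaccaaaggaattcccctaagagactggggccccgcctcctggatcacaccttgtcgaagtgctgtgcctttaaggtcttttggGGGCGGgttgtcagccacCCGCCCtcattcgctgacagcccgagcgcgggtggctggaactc
Slc25a5, chrX:36795437-36795596, plus strand: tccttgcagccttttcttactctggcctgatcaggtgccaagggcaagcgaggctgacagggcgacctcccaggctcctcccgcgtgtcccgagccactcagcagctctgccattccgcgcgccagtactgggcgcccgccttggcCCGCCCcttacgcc
Slc25a39, chr11:102407518-102407677, minus strand: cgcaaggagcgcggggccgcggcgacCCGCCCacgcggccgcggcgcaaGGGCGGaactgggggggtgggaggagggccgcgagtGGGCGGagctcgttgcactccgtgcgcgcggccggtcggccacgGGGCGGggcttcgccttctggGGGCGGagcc
Slc25a4, chr8:46211063-46211222, minus strand: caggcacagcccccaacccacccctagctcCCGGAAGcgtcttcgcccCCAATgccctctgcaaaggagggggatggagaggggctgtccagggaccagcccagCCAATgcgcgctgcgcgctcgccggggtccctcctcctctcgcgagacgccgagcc
The Slc25a39 stretch held 5 GC boxes, that of Slc25a48 held 2 and that of Slc25a5 held 1. That of Slc25a4 held 2 CCAAT boxes and 1 ETS motif and no GC box. Over the whole windows, the GC box was found in 38 of 46 member windows (82.6%), in 60.9% of the windows of tested genes and in 35.7% of all windows. CCAAT was found in 47.8% of member windows and 37.0% of those of tested genes, the ETS motif in 15.2% and 16.5%, the E-box CACGTG in 17.4% and 9.79%, and TATAAA in 4.35% and 7.36%. The member windows include those of members that were not tested. In the 39 windows of tested members the GC box was found in 87.2%, CCAAT in 51.3% and the ETS motif in 15.4%. The E-box was found in 17.95% of these and TATAAA in 2.56%. The NRF1 motif and the ERR motif TCAAGGTCA, which belong to regulators of mitochondrial genes, matched no member window. They matched 1.96% and 0.27% of the windows of tested genes, and at such low shares 46 windows are too few to show a lack. Median GC content was 59.3% in member windows and 60.7% in those of tested genes. These are matches of letters in a fixed window, not sites of binding.

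Of the 47 members, 38 had at least 1 BPM in 4 or more libraries and were tested. Slc25a2, Slc25a31, Slc25a41 and Slc25a54 had no assigned base in any library. Slc25a31 is the ADP/ATP carrier of the germ line, and Slc25a2 is a second ornithine carrier. Slc25a18, a glutamate carrier, had bases in 1 library alone, 40 bases in mutant 3489. Slc25a27, an uncoupling protein-like member of the nervous system, and the unassigned Slc25a43, Slc25a47 and Slc25a53 had some bases but stayed under the filter. Members that neighbour each other in the genome were unlike in level. Slc25a29 and Slc25a47 lie 163 bases apart on chromosome 12, Slc25a23 and Slc25a41 2057 bases apart on chromosome 17, Slc25a24 and Slc25a54 6462 bases apart on chromosome 3, and Slc25a5 and Slc25a43 18449 bases apart on chromosome X. In each of these pairs the first was tested and the second stayed under the filter. Slc25a29 and Slc25a24 were low themselves, with means over all libraries of 2.94 and 4.45 BPM.

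Divided by exon length, the tested members spanned a range from 1.00 BPM per kilobase (Slc25a35) to 323 BPM per kilobase (Slc25a5), averaged over the 8 libraries. The leading members were Slc25a5 (378 BPM per kilobase in controls, 269 in mutants), Slc25a39 (223 and 186), Slc25a4 (136 and 123), Slc25a10 (95.1 and 93.9), Slc25a11 (97.1 and 70.6) and Slc25a1 (39.6 and 43.8). These 6 made up 68.1% ± 1.71 of the summed per-kilobase level of the family in controls (SD, n = 4) and 68.0% ± 2.22 in mutants (SD, n = 4). Slc25a10 and Slc25a11 were closer to each other than the spread between libraries, as were Slc25a1, Slc25a17 and Slc25a3. With the length of the longest transcript in place of all exons, Slc25a3 took the sixth place from Slc25a1.

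**Figure D1:**
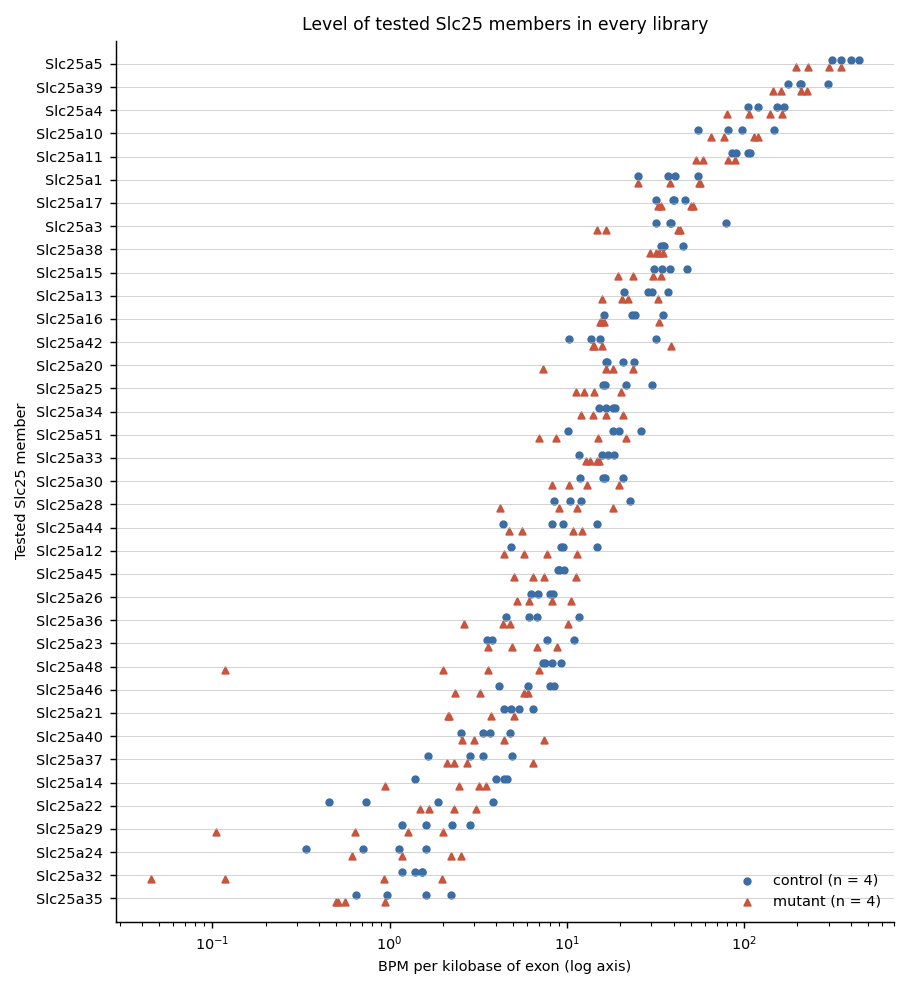
Level of tested members in BPM per kilobase of exon (log axis), with 1 point per library, blue circles for the 4 controls and red triangles for the 4 mutants. Slc25a5, Slc25a39 and Slc25a4 stand highest, and mutant and control points overlap for every member shown except Slc25a48. Of the 38 tested members, 37 are shown.

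By role, carriers of adenine nucleotides and phosphate held the greatest share of the summed per-kilobase level, 41.5% ± 1.60 in controls and 38.2% ± 2.21 in mutants (SD, n = 4 each). Di- and tricarboxylate carriers held 16.7% ± 2.24 and 18.2% ± 0.58, and iron and glutathione carriers 16.9% ± 1.68 and 17.8% ± 0.79. Nucleotide and cofactor carriers held 10.2% ± 1.03 and 11.3% ± 1.78, and amino acid carriers 8.88% ± 0.66 and 8.84% ± 0.78. Each of these shares overlapped between the groups. The share of Slc25a5 alone was 26.6% ± 2.38 in controls and 23.3% ± 1.36 in mutants, and that of Slc25a1 was 2.73% ± 0.47 and 3.72% ± 0.46, both also with overlapping libraries.

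The comparison asked how carrier RNA differed between mutant and control kidneys. None of the 38 tested members passed the test (limma on log2(BPM + 1), Benjamini-Hochberg adjusted p under 0.05), where 14 of all 13060 tested genes did, or 0.107% (0.0766% higher and 0.0306% lower in mutants). None passed with median scaling or with small RNA share as a covariate either, where 0.49% and 3.73% of all genes did. At an unadjusted p under 0.05 there were 3 members, all with lower values in mutants, which is 7.89% of those tested beside 6.33% of all genes (4.42% lower and 1.91% higher). The log2 fold change was negative for 30 members (78.9%) beside 71.6% of all genes, and its median was -0.35 beside -0.23. In bulk tissue, fewer cells of a type and less RNA per cell cannot be told apart. The 95% interval of the fold change covered 0 for 35 members, lay within 1 log2 unit of 0 on both sides for 11, and had its upper bound under 1 for 34. For most members a fall of 1 log2 unit therefore lay inside the interval.

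**Figure D2:**
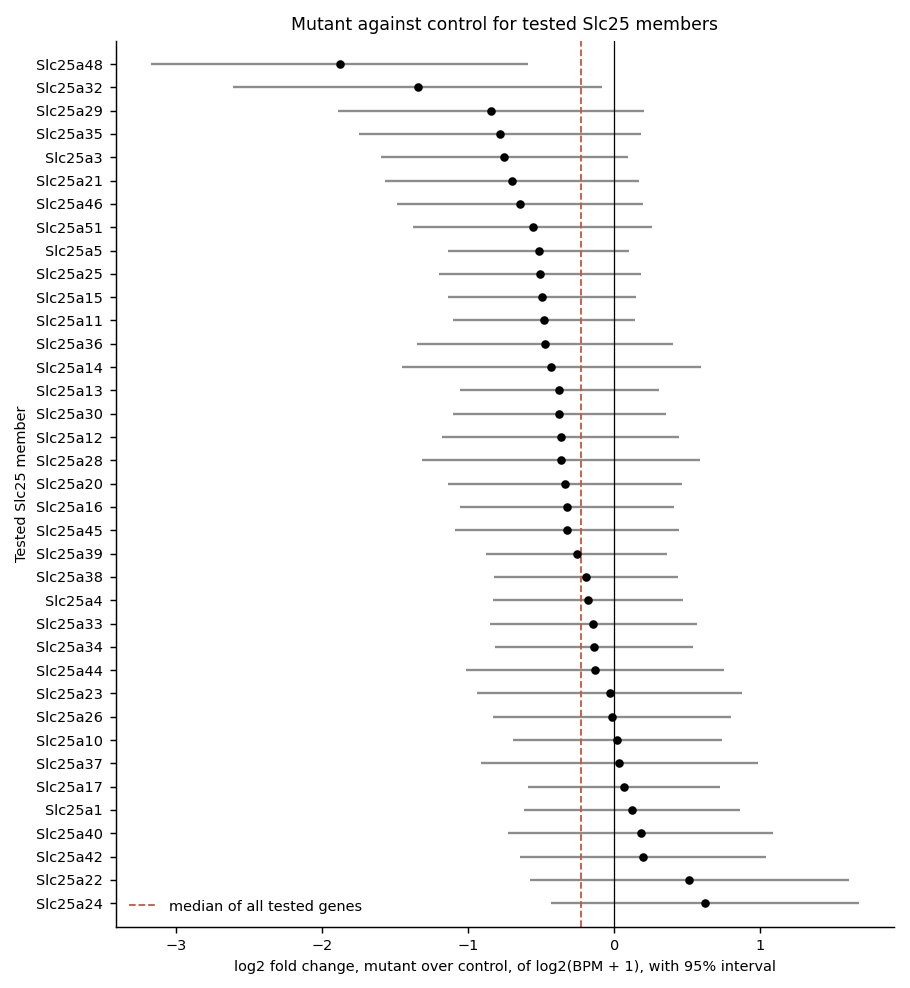
Log2 fold change of 37 of the 38 tested members, mutant over control, of log2(BPM + 1), as a point with its 95% interval from limma. The dashed line is the median of all tested genes at -0.23, and the intervals of Slc25a48 and Slc25a32 lie wholly below 0.

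The summed signal of all 47 rows was 2852, 2354, 3478 and 2626 BPM in controls 3401, 3486, 3586 and 3587, and 2757, 1919, 1628 and 2883 BPM in mutants 3382, 3387, 3487 and 3489. The means were 2828 ± 479 and 2297 ± 618 BPM (SD, n = 4 each), a ratio of 0.81. The low sums were those of mutants 3387 and 3487, whose small RNA share was highest, and the other mutants lay among the controls. With small RNA genes left out of the totals, the sums were 4062, 3611, 4142 and 3483 in controls and 3761, 3720, 3476 and 3901 in mutants, with means of 3825 ± 326 and 3714 ± 177 and a ratio of 0.97. The same libraries recur member by member. In both 3387 and 3487, 20 of the 38 tested members were lower than in the lowest control, whereas 3 were so in both 3382 and 3489. Mutant 3487 held the lowest value of 17 members and the highest of none, and control 3586, with the lowest small RNA share, held the highest value of 18. No such counts over all genes are set beside these. For tested genes other than small RNA genes, the median log2 shift from the mean of all libraries was -0.41 in 3387 and -0.68 in 3487. It was 0.49 in control 3586 and from -0.23 to 0.37 in the other libraries. The carriers thus moved the same way as the median gene. Whether the member counts differ from those of other genes was not tested. After scaling each library by the median of genes other than small RNA genes, the median fold change was -0.13 for members and -0.03 for all genes. On that scale 15 of 38 members had a positive fold change, beside 6094 of all 13060 tested genes (46.7%).

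**Figure D3:**
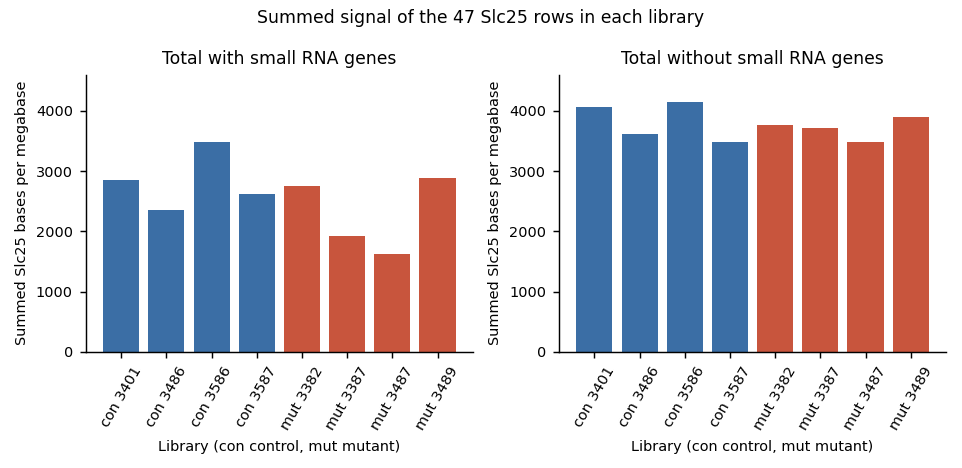
Summed signal of the 47 rows in each library, in bases per megabase, with small RNA genes counted in the library total (left) and left out of it (right). Blue bars are controls and red bars are mutants. On the left mutants 3387 and 3487 are lowest at 1919 and 1628, and on the right all bars lie between 3476 and 4142.

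Slc25a48, a carrier known for choline import into mitochondria (chromosome 13, 56438355 to 56474239, plus strand), had the largest fold change. It stood at 31.5, 25.6, 24.7 and 27.8 BPM in controls 3401, 3486, 3586 and 3587, and at 12.1, 6.80, 0.397 and 23.4 BPM in mutants 3382, 3387, 3487 and 3489. All mutants lay below all controls, mutant 3489 by little and mutant 3487 close to no signal. After median scaling the groups overlapped, with mutant 3489 at 18.5 and control 3586 at 17.6. Such a separation with mutants below was found for 2 members and for 3.4% of all tested genes, and the opposite one for 0 members and 0.888% of all genes. The log2 fold change was -1.88 with an SE of 0.62 (95% interval -3.17 to -0.59, limma adjusted p = 0.485). Without mutant 3487 it was -1.06, and with small RNA share in the fit as a covariate it was -0.89. Without mutants 3387 and 3487 it was -0.66.

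Slc25a32, which carries folate and FAD (chromosome 15, 39091231 to 39112716, minus strand), stood at 9.04, 6.97, 8.19 and 9.01 BPM in controls and 11.7, 0.267, 0.696 and 5.49 BPM in mutants. The groups overlapped, since mutant 3382 held the highest value of all, while mutants 3387 and 3487 were near 0. The log2 fold change was -1.35 with an SE of 0.60 (95% interval -2.61 to -0.08, limma adjusted p = 0.772). It was -0.03 without mutants 3387 and 3487.

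At the other end, Slc25a24, an ATP-Mg/phosphate carrier that is regulated by calcium (chromosome 3, 109123149 to 109168457, plus strand), stood at 3.87, 2.44, 5.54 and 1.17 BPM in controls and 7.67, 4.05, 2.12 and 8.72 BPM in mutants. Its groups overlapped, with mutants 3382 and 3489 above all controls. The log2 fold change was 0.62 with an SE of 0.50 (95% interval -0.43 to 1.68, limma adjusted p = 0.862). With small RNA share in the fit as a covariate it was 1.20, with a limma adjusted p of 0.124, the smallest of any member under any alternative run.

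Slc25a22, a glutamate carrier (chromosome 7, 141429744 to 141437892, minus strand), stood at 5.43, 1.31, 11.1 and 2.12 BPM in controls and 4.29, 8.83, 4.82 and 6.71 BPM in mutants, with a log2 fold change of 0.52 and a limma adjusted p of 0.894. That of Slc25a22 was 0.16 without control 3486 and 0.95 without control 3586. Slc25a42, a carrier of coenzyme A (chromosome 8, 70184340 to 70212305, minus strand), stood at 43.7, 33.1, 101 and 49.3 BPM in controls and 44.9, 50.4, 45.4 and 123 BPM in mutants. The difference in Slc25a42 (log2 fold change 0.20, limma adjusted p = 0.939) rested on mutant 3489, without which it was -0.14, and control 3586 was nearly as high.

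**Figure D4:**
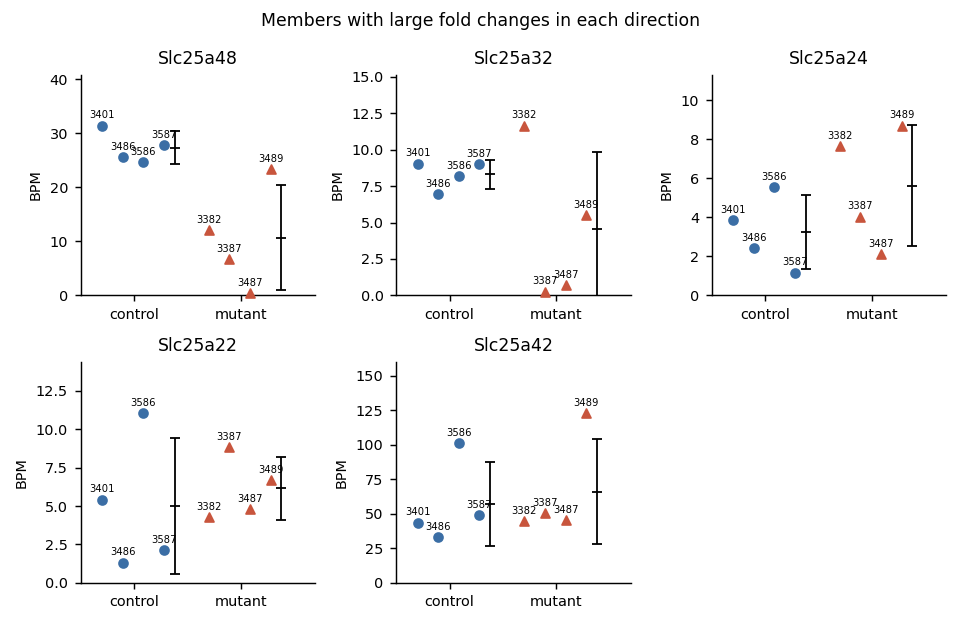
BPM of Slc25a48 and Slc25a32, with the most negative fold changes of the members shown, and of the 3 members with the most positive, with 1 numbered point per library and bars for the group mean ± SD (n = 4 each, drawn no lower than 0). Controls and mutants do not overlap for Slc25a48, and they overlap in the other panels.

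Among the carriers of adenine nucleotides and phosphate, 6 of 8 were tested and 0 passed, with a median log2 fold change of -0.34. Slc25a5, the most abundant ADP/ATP carrier here (chromosome X, 36795651 to 36798807), stood at 499, 439, 552 and 386 BPM in controls and 434, 283, 243 and 371 BPM in mutants. Mutants 3387, 3487 and 3489 lay below every control and 1 among them, with a log2 fold change of -0.52, an SE of 0.30 and a 95% interval of -1.14 to 0.10 (limma adjusted p = 0.836). Slc25a4, the ADP/ATP carrier best known from heart and muscle (chromosome 8, 46206797 to 46211284), stood at 232, 202, 294 and 322 BPM in controls and 314, 206, 153 and 270 BPM in mutants, a log2 fold change of -0.18 (limma adjusted p = 0.930). Both genes have close copies in the genome, and how reads with several matches were assigned is not stated in any source used here, so the division of signal between them is uncertain. The phosphate carrier Slc25a3 stood at 74.7, 75.4, 154 and 62.4 BPM in controls and 84.6, 28.6, 32.4 and 82.3 BPM in mutants (log2 fold change -0.75, limma adjusted p = 0.827). Mutants 3387 and 3487 were low for Slc25a3 and the other mutants lay among the controls. Its log2 fold change was -0.039 without mutants 3387 and 3487 and -0.071 with small RNA share as a covariate. It was -0.47 without control 3586, -0.49 without mutant 3387 and -0.98 without mutant 3489. Of the other ATP-Mg/phosphate carriers, Slc25a25 averaged 86.4 ± 27.1 BPM in controls and 60.1 ± 16.5 in mutants, and Slc25a23 averaged 21.9 ± 11.9 and 20.3 ± 7.70 BPM (SD, n = 4 each).

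All 4 di- and tricarboxylate carriers were tested and 0 passed, with a median log2 fold change of -0.23. The dicarboxylate carrier Slc25a10, which exchanges malate and succinate for phosphate (chromosome 11, 120491840 to 120499187), stood at 298, 197, 163 and 112 BPM in controls and 243, 156, 131 and 231 BPM in mutants. Its log2 fold change was 0.02 with a 95% interval of -0.69 to 0.73 (limma adjusted p = 0.993), and the controls alone spanned the whole range. The oxoglutarate carrier Slc25a11, part of the malate-aspartate shuttle (chromosome 11, 70644196 to 70647479), stood at 153, 145, 185 and 180 BPM in controls and 139, 101, 91.1 and 152 BPM in mutants (log2 fold change -0.48, limma adjusted p = 0.847). The citrate carrier Slc25a1 (chromosome 16, 17925223 to 17928219), which exports citrate for lipid synthesis, stood at 68.2, 41.9, 91.9 and 62.1 BPM in controls and 93.7, 63.3, 41.8 and 92.8 BPM in mutants (log2 fold change 0.12, limma adjusted p = 0.958). Slc25a1 overlapped on this scale, but after median scaling its values were 65.6, 49.2, 65.5 and 54.4 in controls and 72.7, 84.3, 67.2 and 73.4 in mutants, all above. Slc25a21, a carrier of oxodicarboxylates, averaged 14.6 ± 2.41 BPM in controls and 9.04 ± 3.87 in mutants (SD, n = 4 each; log2 fold change -0.70, limma adjusted p = 0.836).

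Of 9 amino acid carriers 7 were tested and 0 passed, with a median log2 fold change of -0.37. The aspartate/glutamate carriers Slc25a12 and Slc25a13, also of the malate-aspartate shuttle, averaged 61.0 ± 26.0 and 91.1 ± 20.6 BPM in controls and 46.6 ± 19.4 and 71.0 ± 21.9 BPM in mutants (SD, n = 4 each). Their log2 fold changes were -0.37 and -0.38, close to one another. Slc25a15, the ornithine carrier of the urea cycle, had -0.50, Slc25a29, a carrier of basic amino acids, had -0.85, and Slc25a44, which carries branched-chain amino acids, had -0.13. Slc25a38, which brings glycine in for heme synthesis, had -0.19. All 7 amino acid carriers had groups that overlapped.

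All 9 nucleotide and cofactor carriers were tested and 0 passed, with a median log2 fold change of -0.32. Besides Slc25a32 and Slc25a42, they included Slc25a16 (coenzyme A, -0.32), Slc25a17 (coenzyme A and NAD of the peroxisome, 0.07), Slc25a26 (S-adenosylmethionine, -0.01), Slc25a33 and Slc25a36 (pyrimidine nucleotides, -0.14 and -0.47) and Slc25a51 (NAD, -0.56), each with its log2 fold change. After median scaling, Slc25a17 stood at 65.7, 64.7, 56.7 and 60.9 in controls and 66.9, 77.7, 90.9 and 69.9 in mutants, all above. Slc25a1 and Slc25a17 were the 2 members so separated on that scale, beside 2.74% of all genes, and Slc25a46 was among the 2 separated in the other direction, beside 2.43%.

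The 4 iron and glutathione carriers were tested and 0 passed, with a median log2 fold change of -0.11. The glutathione carrier Slc25a39 (chromosome 11, 102402985 to 102407946) stood at 349, 298, 501 and 352 BPM in controls and 382, 271, 246 and 353 BPM in mutants (log2 fold change -0.26, limma adjusted p = 0.900). Mutants 3382 and 3489 lay among the controls and the other mutants below them. Its relative Slc25a40 averaged 9.96 ± 2.56 BPM in controls and 12.1 ± 6.12 BPM in mutants (SD, n = 4 each). The mitoferrins Slc25a37 and Slc25a28, which import iron, had log2 fold changes of 0.03 and -0.36. Slc25a37 and Slc25a38 are also abundant in erythroid cells. The 6 erythroid markers summed to 2838 to 5232 BPM in controls and 795 to 2335 BPM in mutants, with none at 0 in all libraries. Most of this sum was Hbb-b2, whose groups overlapped. Of the 6 markers, 5 had a negative log2 fold change, with Slc4a1 at -0.22, close to the median of all genes. Epb4.2 had a positive one, 0.12. Of the 6, 2 passed the test as lower, Hba-a1 and Hba-a2. Hba-a2 did not pass after median scaling (log2 fold change -1.64, limma adjusted p = 0.078), and 4 of the 6 passed with small RNA share as a covariate. The part of blood cells in the values of these carriers was not tested. The annotated span of Slc25a39 lies 430 bases from that of Rundc3a on the other strand. Rundc3a averaged 4.45 BPM in controls and 29.1 BPM in mutants. It was among the 14 genes that passed (log2 fold change 2.34, limma adjusted p = 0.0309). How the counting treated strand is not stated in any source used here.

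The carnitine/acylcarnitine carrier Slc25a20, which brings fatty acids to beta oxidation, averaged 34.9 ± 6.23 BPM in controls and 29.4 ± 12.1 BPM in mutants (SD, n = 4 each; log2 fold change -0.34, limma adjusted p = 0.900). Slc25a30, known as kidney mitochondrial carrier protein, averaged 58.2 ± 12.9 and 46.2 ± 17.9 BPM, and the related Slc25a14 averaged 6.52 ± 2.71 and 4.58 ± 2.06 BPM, neither past the test. Of the 9 other or unassigned members 5 were tested. Slc25a48 was one, and Slc25a46, an outer membrane protein of mitochondrial dynamics, averaged 29.2 ± 8.69 BPM in controls and had a log2 fold change of -0.64. The unassigned Slc25a34 and Slc25a45 averaged 45.9 ± 4.24 and 24.7 ± 0.861 BPM in controls and 42.4 ± 10.1 and 20.5 ± 7.35 BPM in mutants, and Slc25a35 averaged 5.01 ± 2.56 and 2.32 ± 0.786 BPM.

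Ratios of related members within a library do not depend on its total. Of 13 pairs listed, 11 had both members tested, and no pair passed an exact 2-sided permutation test adjusted over the pairs. The smallest possible unadjusted p of this test is 0.0286. After adjustment over 11 pairs, 1 pair alone at that p could not pass, so the test cannot show that the ratios were unchanged. For Slc25a4 over Slc25a5 the log2 ratio of BPM was -0.85 ± 0.40 in controls and -0.51 ± 0.10 in mutants (SD, n = 4 each; exact permutation p = 0.143, adjusted over pairs 0.314). The control ratios reached from -1.12 to -0.26, so 1 control lay above all mutants. For Slc25a23 over Slc25a24 it was 2.76 ± 0.45 and 1.94 ± 0.38, and for Slc25a16 over Slc25a42 it was 0.53 ± 0.28 and 0.00 ± 0.19 (exact permutation p = 0.0571 and adjusted p = 0.314 for each). For Slc25a12 over Slc25a13 it was -0.66 ± 0.33 and -0.65 ± 0.19. Slc25a10 over Slc25a11 varied more among controls, 0.13 ± 0.72, than among mutants, 0.64 ± 0.12, and the difference in spread was not tested.

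**Figure D5:**
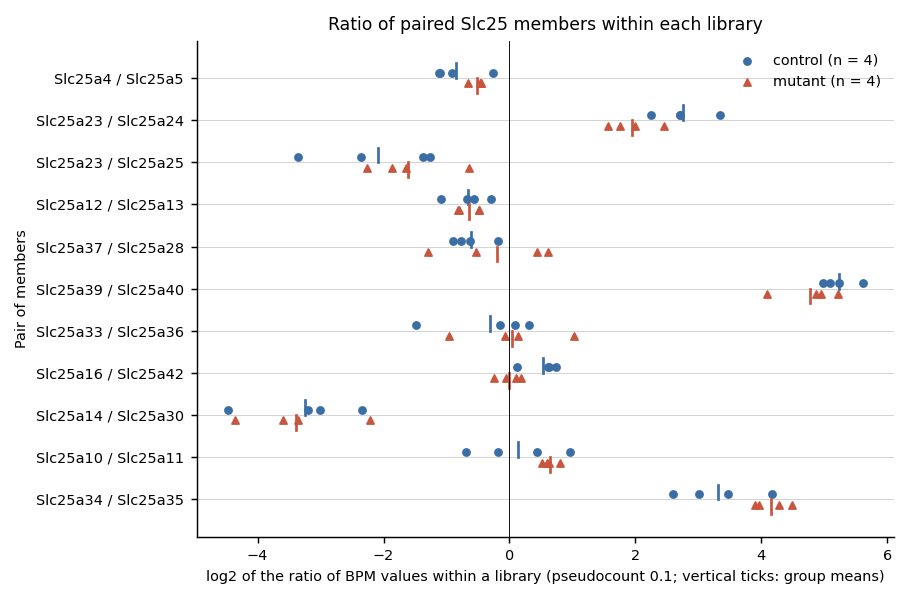
Log2 ratio of BPM within each library for the 11 pairs of related members, with a pseudocount of 0.1, blue circles for controls, red triangles for mutants and vertical ticks for the group means (n = 4 each). The groups overlap in every pair, and the ratio of Slc25a10 to Slc25a11 is more widely spread among controls.

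Other mitochondrial genes were set beside the family. Of 81 tested genes of the respiratory chain and ATP synthase, 0 passed, 75 had a negative log2 fold change, 34 had an unadjusted p under 0.05, and the median was -0.63. With small RNA share as a covariate 8 of them passed and their median was -0.53, beside 0.25 for all genes and 0.04 for the carriers. For the 76 genes of the mitochondrial ribosome 0 passed, 70 were negative, 9 had an unadjusted p under 0.05 and the median was -0.45. The family's median of -0.35 was thus nearer to that of all genes, -0.23, than either, and the difference between these lists was not tested. Of 12 genes of the import machinery that carriers use, 0 passed (1, Timm8b, with the covariate) and the median was -0.38, and of 16 other transport genes of the mitochondrial membranes 0 passed and the median was -0.30. Of 11 regulators of mitochondrial gene expression 0 passed, with a median of -0.40.

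Among carrier relatives that bear other symbols, Ucp2, an uncoupling protein of immune cells and other tissues, stood at 23.6, 31.6, 54.7 and 39.6 BPM in controls and 87.2, 79.1, 43.1 and 91.4 BPM in mutants. The mutants were higher except for 3487, which lay among the controls. The log2 fold change was 1.00 with an SE of 0.36 (limma adjusted p = 0.569). The limma adjusted p was 0.034 after median scaling and 0.0067 with small RNA share as a covariate. Macrophage markers had higher group means in mutants, but not in the same libraries for each marker. Lyz2, Cd14 and C1qb lay above every control in all mutants, 3487 among them. C1qa, Csf1r and Emr1 lay among the controls in mutant 3387. In mutant 3487, C1qa at 6.18 BPM and Csf1r at 10.4 BPM lay below every control. There C1qc lay among the controls at 3.84 BPM, and Emr1 lay above them at 8.81 BPM. The markers summed to 105 to 195 BPM in controls and 193 to 1498 BPM in mutants, and Lyz2 alone gave 1057 BPM in mutant 3382. Of the 8 macrophage markers 7 were tested, all 7 with positive fold changes and 0 past the test, and none was at 0 in all libraries. After median scaling, where Ucp2 passed, 2 of these markers passed as well (Lyz2 and Cd14, limma adjusted p = 0.012 and 0.018). All 7 did with small RNA share as a covariate, where Ucp2 passed too. Their part in the Ucp2 values was not tested.

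In the authors' deposited table, 3 of the 47 members had a p-value under 0.05 (6.38%), beside 4.50% of all 23219 genes. In the authors' deposited table Slc25a48 had a ratio of mutant to control means of 0.390 and Slc25a11 one of 0.727.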

How the data were processed

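Total RNA of 8 whole kidneys was depleted of ribosomal RNA and made into barcoded libraries with an Ion Total RNA-seq kit, per the labels' protocols. The authors deposited 1 gene table that holds a value for every library, both group means, their ratio and a p-value. The deposited values are a coverage signal without a stated unit. Within a tolerance of 1e-06, 100% of them were whole multiples of the smallest value in the same library, and 0.0435% of positive values lay from 1 to 19 steps. They were therefore read as sequenced bases per gene plus 1, scaled to 280 megabases per library. No source states this, and the number of reads is unknown, so no counting interval is given. The authors' ratio and p-value were used only as deposited. Per the submitters' processing notes, bedtools and mm10 were used. The sources used here do not name the aligner, annotation or strand treatment.

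Values were divided by 280 (BPM). Genes with at least 1 BPM in 4 libraries (13060) were log2-transformed with a pseudocount of 1 and fitted together in R 4.3.3. The 2-sided limma 3.58.1 test used a trended prior variance, Benjamini-Hochberg adjustment over all 13060 genes and a threshold of 0.05. Fold changes on this scale understate those of low genes. The test was checked on simulated data in which genes varied independently of each other. These held no shift shared by a whole library, so the check does not cover the shifts between libraries described above. Pair ratios used a pseudocount of 0.1, and their exact permutation test was run in Python 3.11.15 with NumPy 2.4.6. Exon lengths and positions come from GENCODE vM21, to which 22884 symbols matched. Small RNA genes numbered 708. The fit assumed a normalized signal, since whole reads could not be recovered. Members and gene lists were chosen with earlier results of these data known. Values in every library are given for members with an unadjusted p under 0.05, the 6 of highest level per kilobase and the 3 with the largest fold change each way. The values of 1 member that the rule names are not reported here, though it stays in the counts. Slc25a3 was added after its values were seen, and Ucp2, Rundc3a and Mta2 are context genes. Alternatives were no filter, a filter of 5 BPM, a pseudocount of 0.1, array weights, median scaling, small RNA genes left out of totals, their share as a covariate, leaving out mutants 3387 and 3487, and leaving out each library.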

Additional observations from a re-analysis of the deposited data

Results flagged for a closer look

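Of 98 groups of 4 libraries examined, 7 held a library far from the other 3 by Dixon's test at the 95% level, and chance flags about 1 group in 20. Control 3586 was high for Slc25a3 at 154 BPM, where the other controls stood at 62.4 to 75.4 BPM. Control 3587 was high for Slc25a38 at 81.0 BPM, with the others from 60.6 to 63.0 BPM. Mutant 3489 was high for Slc25a16 at 104 BPM, for Slc25a42 at 123 BPM and for Slc25a37 at 27.0 BPM, where the other mutants reached 51.1, 50.4 and 11.4 BPM. Slc25a16 and Slc25a42 are both carriers of coenzyme A. Mutant 3387 was high for Slc25a35 at 3.49 BPM, with the others from 1.84 to 2.06 BPM. The log2 ratio of Slc25a4 to Slc25a5 was low in mutant 3487 at -0.67, where the other mutants lay close together at -0.47 to -0.46.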

How the results depend on the processing

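No member passed the test under any of the 16 alternatives, and the smallest limma adjusted p was 0.124. The count over all genes, 14, was 0 with no filter on low values (limma, with 1274 genes at an unadjusted p under 0.05), 9 with a filter of 5 BPM, 9 with a pseudocount of 0.1, 73 with array weights (whose estimate stopped before convergence), 64 with median scaling, 50 with small RNA genes left out of totals, 487 with their share as a covariate, 51 without mutants 3387 and 3487, and 5 to 40 when 1 library was left out, with 40 without mutant 3487, 37 without control 3486, and 5 without mutant 3387 or 3489. The median log2 fold change of the tested members, -0.35, was 0.045 with the covariate and -0.42 to -0.19 with 1 library left out, while the median of all genes was 0.25 with the covariate. The ratio of family sums was 0.74 to 0.89 with 1 library left out.

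Signs turned for the members below, none past the test. They included some of the larger fold changes, such as Slc25a51 at -0.56 and Slc25a36 at -0.47. With median scaling these were Slc25a4 0.042, Slc25a23 0.18, Slc25a26 0.19, Slc25a33 0.072, Slc25a34 0.084, Slc25a38 0.027 and Slc25a44 0.083. With small RNA genes left out of totals they were Slc25a4 0.10, Slc25a23 0.24, Slc25a26 0.26, Slc25a33 0.13, Slc25a34 0.15, Slc25a38 0.089, Slc25a39 0.028 and Slc25a44 0.15. With the covariate they were Slc25a4 0.19, Slc25a12 0.21, Slc25a16 0.057, Slc25a20 0.075, Slc25a23 0.49, Slc25a26 0.24, Slc25a28 0.30, Slc25a30 0.041, Slc25a36 0.13, Slc25a39 0.048, Slc25a44 0.53 and Slc25a51 0.091. Without mutants 3387 and 3487 they were Slc25a4 0.18, Slc25a12 0.074, Slc25a20 0.040, Slc25a23 0.39, Slc25a26 0.32, Slc25a28 0.21, Slc25a30 0.013, Slc25a36 0.026, Slc25a44 0.43, Slc25a45 0.010 and Slc25a51 0.034, and the ratio of Slc25a33 to Slc25a36 was -0.20. With array weights they were Slc25a10 -0.090 and Slc25a23 0.0022. The cause was not tested. With 1 library left out, the ranges were -0.074 to 0.36 for Slc25a1, -0.34 to 0.0083 for Slc25a4, -0.21 to 0.26 for Slc25a10, -0.037 to 0.17 for Slc25a17, -0.26 to 0.26 for Slc25a23, -0.18 to 0.13 for Slc25a26, -0.31 to 0.26 for Slc25a37, -0.10 to 0.37 for Slc25a40, -0.14 to 0.52 for Slc25a42 and -0.44 to 0.13 for Slc25a44, and for the ratios -0.14 to 0.13 (Slc25a12 to Slc25a13), -0.54 to 0.19 (Slc25a14 to Slc25a30) and -0.049 to 0.67 (Slc25a33 to Slc25a36). No paired analysis was possible because the groups share no replicate number. Read depth is unknown, and with 4 kidneys a group the intervals of most members hold a fall of 1 log2 unit.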
